A study of Mus musculus with 9 samples.

Results

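The genes described here are 10 genes of the endoplasmic reticulum (ER) and integrated stress response: Hspa5, Hsp90b1, Dnajb9, Sdf2l1, Herpud1, Xbp1, Atf3, Atf4, Ddit3 and Trib3. They were chosen by name for their known roles, with earlier results of these data known. All 10 were found among the 16755 genes of the deposited table. RNA was sequenced from liver of C57BL/6 mice in 3 groups of 3 samples. For expression levels the table gives the mean of each group, with no value per sample, and the statistics of the authors' own comparisons that stand beside the means were not used. All mice carried the floxed allele Scd2f/f. The first group, Scd2f/f untreated, received neither agent. Its own age and diet are not stated in the sources used here, which give only a range of ages over all mice of the study. The second, Scd2f/f DEN+WAD, had been injected with the hepatic carcinogen diethyl nitrosamine (DEN, 10 mg/kg) at 2 weeks of age and fed a Western alcohol diet (WAD) from 6 weeks of age, for 4 months by the sample labels, where the methods of the study state a month more. The third, Scd2f/f;Col1a1-Cre DEN+WAD, had the same regimen, in males as in the second, and also carried Cre recombinase under the Col1a1 promoter, which acts in activated hepatic stellate cells (aHSC) and portal fibroblasts, so that other cells that express Scd2 keep it. The labels call the tissue liver, and the titles of the untreated samples call it normal. The study describes the tissue of the DEN+WAD groups mainly as liver next to tumors, with microscopic tumors in it. No group had DEN or WAD alone, so DEN, WAD, tumor content and any difference in age cannot be told apart. No untreated group had Cre.

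The unfolded protein response (UPR) adjusts the folding capacity of the ER to its load. Unfolded protein frees the chaperone HSPA5 (BiP) from the sensors PERK, IRE1 and ATF6. IRE1 splices Xbp1 mRNA, ATF6 is cut in the Golgi to a transcription factor, and both raise the mRNA of ER chaperones and of the degradation machinery. PERK phosphorylates eIF2alpha, as do GCN2, PKR and HRI outside the ER in what is called the integrated stress response, and this slows protein synthesis while it favors translation of ATF4. ATF4 then raises Atf3, Ddit3 (which encodes CHOP), Trib3 and genes of amino acid supply. Hepatocytes secrete most plasma proteins and hold a large ER. Values of mRNA per gene tell neither spliced from unspliced Xbp1 nor the translation of Atf4.

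Short elements in the promoters of these genes are known to bind ATF6, XBP1 or C/EBP-ATF dimers, and those found near the start sites are shown because they are the known binding sites of the factors described. Windows from 250 bases before to 50 after each start site were taken from RefSeq (GRCm38.p6), and both strands were searched. The ER stress response element (ERSE) was searched as CCAAT and CCACG with 9 bases between them, and ERSE-II as ATTGG and CCACG with 1 base between them. The C/EBP-ATF element was searched as TGATGNAA, the UPRE core as TGACGTGG and the CRE as TGACGTCA. Capitals mark the match, ERSE in Hspa5 and Hsp90b1 (the second match of Hsp90b1 on the reverse strand), ERSE-II in Herpud1 and the reverse complement of the C/EBP-ATF element in Atf3. The stretches are chr2:34771995-34772073 (plus strand) for Hspa5, chr10:86705503-86705686 (minus strand) for Hsp90b1, chr8:94386347-94386417 (plus strand) for Herpud1 and chr1:191183406-191183473 (minus strand) for Atf3, each written 5′ to 3′ along the gene.
Hspa5: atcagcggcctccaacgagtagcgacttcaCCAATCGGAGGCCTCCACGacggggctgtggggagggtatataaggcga
Hsp90b1: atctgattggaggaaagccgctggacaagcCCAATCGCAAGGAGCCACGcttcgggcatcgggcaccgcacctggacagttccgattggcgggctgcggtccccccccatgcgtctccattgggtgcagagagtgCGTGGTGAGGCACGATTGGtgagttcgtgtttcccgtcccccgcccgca
Herpud1: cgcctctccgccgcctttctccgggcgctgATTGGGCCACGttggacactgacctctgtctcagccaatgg
Atf3: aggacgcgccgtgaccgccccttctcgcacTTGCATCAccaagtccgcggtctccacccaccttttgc

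The ERSE of Hspa5 lay from 65 to 47 bases before its RefSeq start, and those of Hsp90b1 from 212 to 194 and from 107 to 89 bases before. Herpud1 held ERSE-II from 52 to 42 bases before its start and a C/EBP-ATF element from 112 to 105 bases before. Atf3 held the C/EBP-ATF element from 110 to 103 bases before its start, and Trib3 from 15 to 22 bases after. ERSE or ERSE-II was thus in 3 of 10 member windows, against 0.155% of 32851 windows, and the C/EBP-ATF element was also in 3 of 10, against 3.97% of all windows. The elements were searched because they are known in promoters of these genes, so these shares describe the windows and test nothing. The UPRE core, in 0.676% of all windows, and the CRE, in 1.79%, matched no member window. None of the 5 motifs matched the windows of Dnajb9, Sdf2l1, Xbp1, Atf4 or Ddit3, which says only that these letters are not in those windows. The chaperone Hspa5, with ERSE, and the chaperones Dnajb9 and Sdf2l1, without a match, were all lower in DEN+WAD than in untreated liver, as described next.

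**Figure D1:**
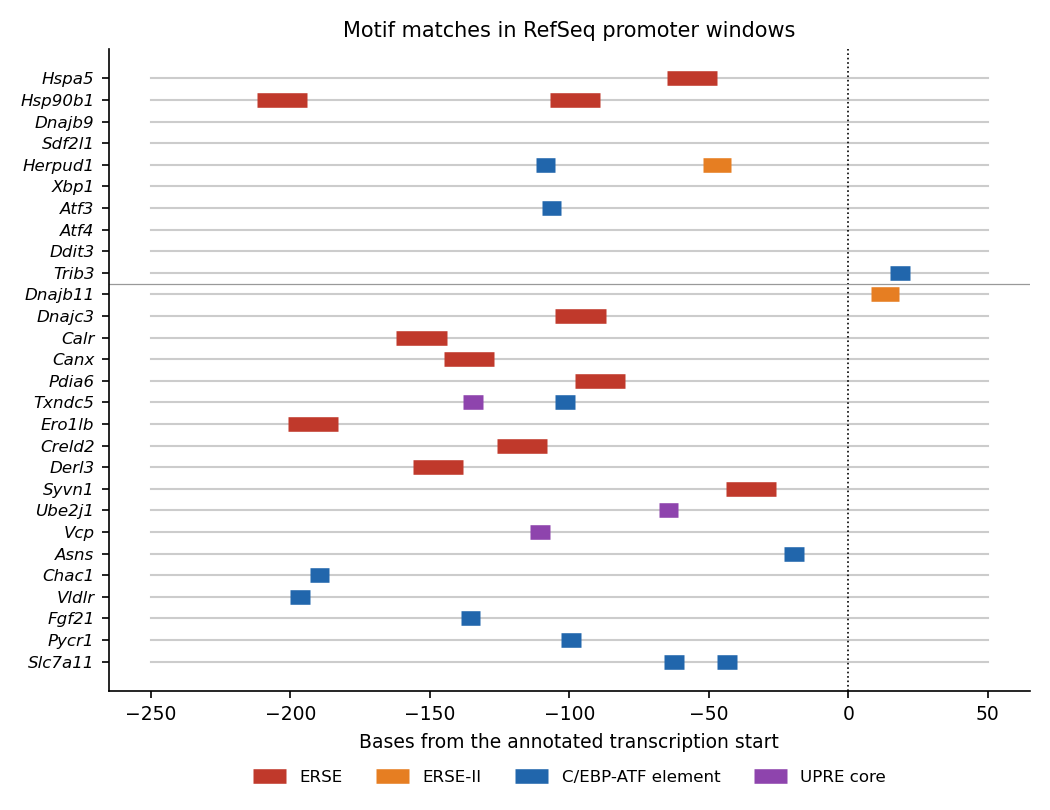
Matches of the motifs in RefSeq promoter windows, with distance from the annotated start in bases on the x axis and 1 gene per line, members above the grey rule and genes of the ER chaperone, ER-associated degradation and ATF4 and CHOP target lists with a match below it. ERSE and ERSE-II (red and orange) appear in chaperone and degradation genes, and the C/EBP-ATF element (blue) in Herpud1, Atf3, Trib3, Txndc5 and 6 genes of the ATF4 and CHOP list.

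With DEN and WAD, the chaperones Hspa5, Dnajb9 and Sdf2l1 and the factor Xbp1 were lower than in untreated liver, while Atf3, Ddit3 and Trib3 were higher. A gene was counted as higher or lower at a ratio of group means of at least 1.5-fold, with no test, since the spread between mice is not known from group means. In Scd2f/f DEN+WAD over Scd2f/f untreated liver, 4 of 10 members were lower (Hspa5, Dnajb9, Sdf2l1 and Xbp1), where 8.6% of 11784 genes with a mean over the 3 groups of at least 1 were lower, and 3 were higher (Atf3, Ddit3 and Trib3), where 12.8% of those genes were higher. In Scd2f/f;Col1a1-Cre DEN+WAD over Scd2f/f DEN+WAD liver, no member was higher, against 2.35% of genes, and 2 were lower (Atf3 and Trib3), against 4.9%. In Scd2f/f;Col1a1-Cre DEN+WAD over Scd2f/f untreated liver, 4 were lower, the chaperones Hspa5, Dnajb9 and Sdf2l1 with Xbp1, against 7.71% of genes, and Atf3 alone was higher, against 10.9%. The median log2 ratio of the 10 members was -0.50, -0.03 and -0.41 in these comparisons, and that of all genes 0.03, 0.01 and 0.04. The comparisons share groups, so a gene that is high in Scd2f/f DEN+WAD liver for any reason is both higher over untreated liver and lower in the Cre group. All 10 members had a mean of at least 1, though Atf3 reached it only through Scd2f/f DEN+WAD liver.

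**Figure D2:**
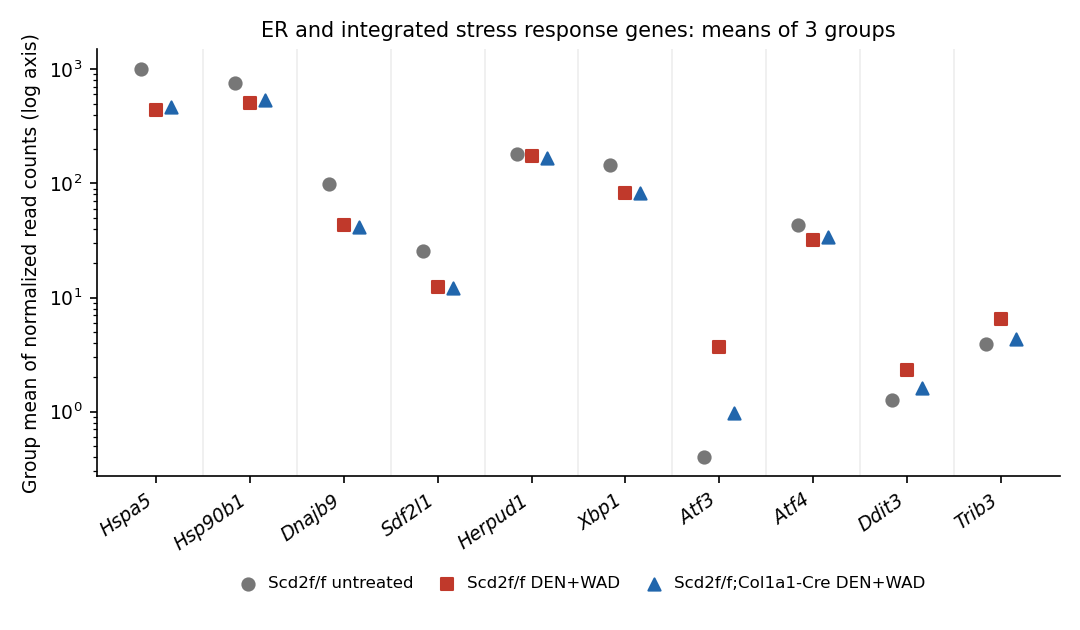
Group means of the 10 members, in upper-quartile-normalized read counts on a log axis, with 1 point per group (mean of 3 samples, no error available). Hspa5, Hsp90b1, Dnajb9, Sdf2l1 and Xbp1 have their highest mean in untreated liver, and Atf3, Ddit3 and Trib3 in Scd2f/f DEN+WAD liver.

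Hspa5 encodes BiP, the major Hsp70 chaperone of the ER lumen and the brake on the UPR sensors. It lies at chr2:34771970-34777547 in coordinates that match GRCm38, and the printed stretch with its ERSE falls between the GENCODE and the RefSeq start. Its group means were 1010 normalized read counts in Scd2f/f untreated, 437 in Scd2f/f DEN+WAD and 464 in Scd2f/f;Col1a1-Cre DEN+WAD liver. Both DEN+WAD groups were thus well below untreated liver and close to each other. The log2 ratio was -1.21 for Scd2f/f DEN+WAD over untreated, where 2.03% of genes had a ratio as low, and 0.09 for the Cre group over Scd2f/f DEN+WAD.

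Hsp90b1 (chr10:86690209-86705509) encodes GRP94, the Hsp90 of the ER, which folds integrins and Toll-like receptors. Its means were 752 in untreated, 509 in Scd2f/f DEN+WAD and 536 in Scd2f/f;Col1a1-Cre DEN+WAD liver. With 1.48-fold lower levels in Scd2f/f DEN+WAD than in untreated liver it stood just inside the 1.5-fold limit and was not counted. It shares ERSE with Hspa5, whose ratio was lower. Its span overlaps 1810014B01Rik on the opposite strand, with means of 7.08, 5.19 and 7.03.

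Dnajb9 (chr12:44205559-44210326) encodes ERdj4, a BiP cochaperone that keeps IRE1 in check and is a target of spliced XBP1. Its means were 98.7, 42.8 and 41.8 in untreated, Scd2f/f DEN+WAD and Scd2f/f;Col1a1-Cre DEN+WAD liver. Sdf2l1 (chr16:17130138-17132383), another ER protein that works with BiP, had means of 25.8, 12.4 and 12.1 in the same order. These genes were 2.31-fold and 2.08-fold lower in Scd2f/f DEN+WAD than in untreated liver, about as much as Hspa5, and differed by 1.02-fold between the DEN+WAD groups.

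Herpud1 (chr8:94386438-94395377) encodes a membrane protein that organizes ER-associated degradation, and it is induced through both ERSE-II and ATF4. Its means were 181, 175 and 165, the most level of the 10 members over untreated liver. The antisense gene Gm15890 overlaps its start, with means of 0.344, 0.297 and 0.431. Herpud1 was the only member whose direction against untreated liver turned with the scaling. Its log2 ratio in Scd2f/f DEN+WAD liver was -0.05, and 0.27 when the groups were scaled to equal sums. With equal sums of protein-coding genes alone it was -0.01. Xbp1 (chr11:5520659-5525893) encodes the transcription factor spliced by IRE1. Its means were 144, 81.8 and 82.0, so that it was 1.76-fold lower in Scd2f/f DEN+WAD than in untreated liver and nearly equal in both DEN+WAD groups.

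Atf4 (chr15:80255184-80257540 as the table gives it, not equal to the GENCODE M21 span) encodes the transcription factor at the center of the integrated stress response, whose output depends largely on translation. Its mRNA had means of 43.0, 31.8 and 34.1, lower by 1.35-fold in Scd2f/f DEN+WAD than in untreated liver and within the limit in every comparison. Of its known targets among the members, Atf3, Ddit3 and Trib3 were higher in Scd2f/f DEN+WAD than in untreated liver and Herpud1 was level. Atf3 (chr1:191170296-191218039) encodes a bZIP factor induced early in many stress and inflammatory responses. Its means were 0.404 in untreated, 3.69 in Scd2f/f DEN+WAD and 0.982 in Scd2f/f;Col1a1-Cre DEN+WAD liver. It was 9.13-fold higher in Scd2f/f DEN+WAD than in untreated liver. The Cre group was 3.76-fold lower than Scd2f/f DEN+WAD and 2.43-fold higher than untreated liver. All these means are low, and the spread between mice behind them is not known.

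Ddit3 (chr10:127290774-127296288) encodes CHOP, the factor tied to cell death under long ER stress. Its means were 1.26, 2.34 and 1.62, which placed it 1.86-fold higher in Scd2f/f DEN+WAD than in untreated liver. The Cre group was 1.44-fold lower than Scd2f/f DEN+WAD, under the limit. That log2 ratio was -0.7 with the groups scaled to equal sums and -0.64 with equal sums of protein-coding genes, both past the limit. Its annotated span overlaps the end of Mars on the opposite strand, and the library kit does not mark strand, so reads there cannot be told apart. Mars was nearly level over the groups, with means of 26.8, 29.7 and 29.3. These are far above the means of Ddit3, so even a small share of Mars reads could bear on them, which was not tested. Trib3 (chr2:152337422-152344032) encodes a pseudokinase that CHOP and ATF4 induce and that binds both AKT and ATF4. Its means were 3.88, 6.45 and 4.30, a 1.66-fold higher level in Scd2f/f DEN+WAD than in untreated liver. In the Cre group it was 1.5-fold lower, exactly on the limit, and since the means carry 3 significant digits rounding decides whether it is counted.

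**Figure D3:**
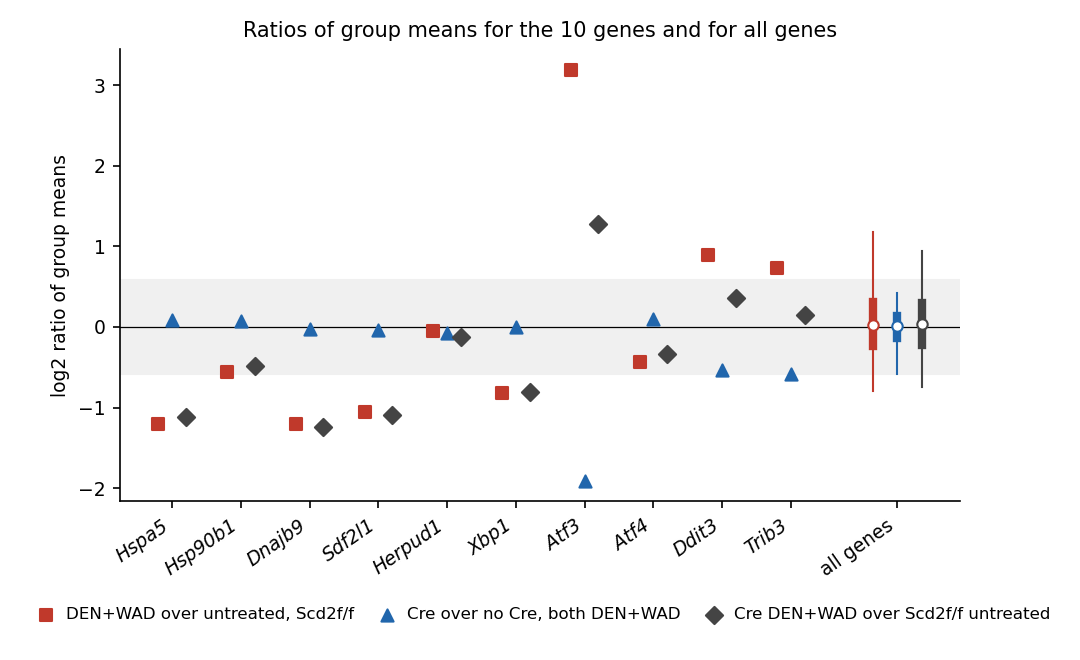
log2 ratios of group means for the 10 members (points, 3 comparisons) beside the same over all genes with a mean of at least 1 (thin line from the 5th to the 95th percentile, thick line from the 25th to the 75th, open circle the median). The grey band holds ratios under 1.5-fold. The chaperones and Xbp1 sit below 0 against untreated liver and near 0 between the DEN+WAD groups, while Atf3 has a ratio of 3.19 with DEN and WAD and -1.91 with Cre.

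Per kilobase of exon, Hspa5 and Hsp90b1 stood above the other members in every group. In Scd2f/f untreated liver the level per kilobase was 239 for Hspa5, 187 for Hsp90b1, 77.6 for Herpud1 and 44.3 for Xbp1. Dnajb9 followed with 38.7 and Sdf2l1 with 23.3, both below Xbp1. It was 18.2 for Atf4, 1.83 for Trib3, 0.736 for Ddit3 and 0.188 for Atf3. In Scd2f/f DEN+WAD liver the order of the first 2 was exchanged, with 126 for Hsp90b1 and 103 for Hspa5, and Herpud1 followed with 75. Atf3 at 1.71 then stood above Ddit3 at 1.37 and below Trib3 at 3.04. Without values of single mice, neighbors in these orders cannot be said to differ beyond their spread.

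Other ER chaperones and folding enzymes were mostly level. Of 24 listed genes, 4 were at least 1.5-fold lower in Scd2f/f DEN+WAD than in untreated liver (Creld2, Manf, Fkbp11 and Dnajb11) and none was higher, where 8.6% of all genes were lower and 12.8% higher. Creld2, a secreted ER stress protein with ERSE in its window, had means of 48.4, 8.93 and 8.55, and a ratio of 0.185 in Scd2f/f DEN+WAD over untreated liver. Manf, an ER-resident and secreted cofactor of BiP, had means of 78.0, 27.9 and 25.3. These were lower in proportion than Hspa5. The protein disulfide isomerases and lectin chaperones did not share this, and the highest ratios of the list were 1.27 for Ero1lb, an oxidase, and 1.15 for Sec63, part of the translocon. The list had a median log2 ratio of -0.15 in Scd2f/f DEN+WAD over untreated liver and of -0.06 in the Cre group over Scd2f/f DEN+WAD. None of the 24 passed the limit between the DEN+WAD groups, where 2.35% of all genes were higher and 4.9% lower. Its ends there were Fkbp2 and Fkbp11, with ratios of 0.759 and 0.869, and Ppib and Ero1l, with ratios of 1.15 and 1.12. ERSE or ERSE-II was in 7 of the 21 genes of this list with a window, among them Creld2 and Dnajb11, which were lower, and Calr and Canx, with ratios of 0.931 and 1.11.

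Among 25 genes of ER-associated degradation and translocation, 6 were lower and none higher in Scd2f/f DEN+WAD than in untreated liver (8.6% and 12.8% of all genes), with a median log2 ratio of -0.27. Syvn1, the ubiquitin ligase HRD1 at the core of this pathway, had means of 55.7, 26.2 and 28.2, and its window held ERSE. Sec61g, a subunit of the translocon, had means of 5.34, 2.18 and 2.64. The other 4 (Sec61b, Ssr2, Sec11c and Spcs2) also serve protein entry into the ER, by translocation or signal peptide cleavage, rather than degradation. At the other end were Vcp, the segregase that pulls substrates out of the membrane, with means of 170, 237 and 236, and the lectin Os9, with a ratio of 1.27. Between the DEN+WAD groups no gene of this list passed the limit, where 2.35% of all genes were higher and 4.9% lower. The median log2 ratio was -0.01. Its ends there were Ufd1 and Selenok, with ratios of 0.848 and 0.85, and Sec61g and Edem1, with ratios of 1.21 and 1.2.

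The UPR sensors and their proteases were near level with DEN and WAD. Of 10 with a mean of at least 1, only Creb3l2, a factor cleaved like ATF6, was at least 1.5-fold lower in Scd2f/f DEN+WAD than in untreated liver, with a ratio of 0.599, and 8.6% of all genes were. Ern1, which encodes IRE1, had a ratio of 0.798 and Atf6 of 1.25. In the Cre group, Creb3 had a mean of 8.15 against 15.0 in Scd2f/f DEN+WAD and 16.6 in untreated liver. Eif2ak3, which encodes PERK, had means of 12.7, 13 and 8.67, a ratio of 0.667 between the DEN+WAD groups and just inside the limit. Both genes had similar means in untreated and Scd2f/f DEN+WAD liver and their lowest mean in the Cre group. The highest ratios between the DEN+WAD groups were 1.16 for Creb3l3 and 1.11 for Atf6b. Nfe2l1, an ER-bound factor that raises proteasome genes, was higher in the Cre group than in untreated liver, with a ratio of 1.58.

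Among the other eIF2alpha kinases, phosphatases and bZIP partners, 2 of 11 (18.2%) were higher and none lower in Scd2f/f DEN+WAD than in untreated liver, a share near that of all genes that were higher (12.8%, with 8.6% lower). Atf5, which is translated like ATF4 under stress, had means of 43.2, 107 and 97.8, and so stayed high in the Cre group. Jun, a partner of ATF3 in AP-1 dimers, had means of 24.0, 41.4 and 25, highest in the same group as Atf3. Eif2s1, eIF2alpha itself, had the lowest ratio of the list in Scd2f/f DEN+WAD over untreated liver, 0.675, and Eif2ak4, which encodes GCN2, followed with 0.776. Between the DEN+WAD groups the highest ratios were 1.17 for Ppp1r15b and 1.14 for Eif2ak2, which encodes PKR. Cebpb had means of 79.5, 66.2 and 49.9 and passed the limit only in the Cre group over untreated liver, with a ratio of 0.628.

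The known targets of ATF4 and CHOP differed in direction. Of 14 with a mean of at least 1, 6 were higher and 2 lower in Scd2f/f DEN+WAD than in untreated liver, where 12.8% and 8.6% of all genes were. In the Cre group over Scd2f/f DEN+WAD, 4 were lower and none higher, where 4.9% and 2.35% of all genes were. Fgf21, a hormone that the liver releases under fasting and stress, had means of 0.167, 4.19 and 1.53, and so reached a mean of at least 1 only through Scd2f/f DEN+WAD liver, as did Aldh18a1, which makes proline precursors (0.618, 1.43 and 0.991), so that both had to be high there to be counted. Gdf15, a stress hormone that lowers food intake, had means of 2.56, 13.1 and 8.13, and Chac1, which degrades glutathione, had means of 1.06, 4.01 and 1.34. Fgf21, Aldh18a1, Gdf15 and Chac1 were highest in Scd2f/f DEN+WAD liver, as were Bbc3 (1.62, 2.55 and 1.8), Atf3, Ddit3 and Trib3. Vldlr, also among the 6 counted as higher, had means of 4.22, 9.97 and 11.4 and so was highest in the Cre group. The lowest ratios went to 2 other targets. Asns, asparagine synthetase, had means of 2.72, 1.13 and 1.08, and Ddit4, an inhibitor of mTORC1, had means of 3.62, 1.69 and 0.982. The highest ratios between the DEN+WAD groups were 1.29 for Cth and 1.17 for Shmt2. The C/EBP-ATF element was in 6 of the 16 genes of this list with a window, both in Fgf21 and Chac1, which were higher with DEN and WAD, and in Asns, which was lower. Of 12 cytosolic aminoacyl-tRNA synthetases, which ATF4 is also known to raise, none passed the limit in any comparison. Of all genes, 12.8% were higher and 8.6% lower in Scd2f/f DEN+WAD over untreated liver. Between the DEN+WAD groups the shares were 2.35% and 4.9%, so low that none of 12 says little. In the Cre group over untreated liver they were 10.9% and 7.71%. Ratios of the synthetases in Scd2f/f DEN+WAD over untreated liver ran from 0.94 for Iars to 1.48 for Tars. They ran from 0.828 for Sars to 1.07 for Eprs between the DEN+WAD groups, and from 0.88 for Wars to 1.49 for Tars in the Cre group over untreated liver.

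**Figure D4:**
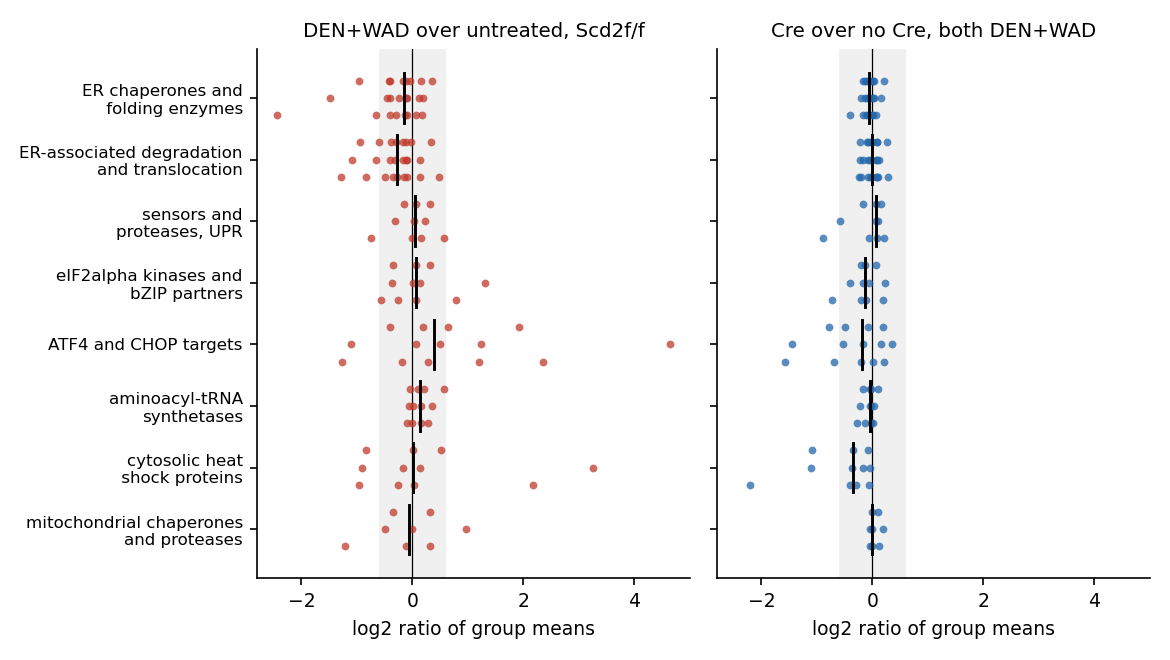
log2 ratios of group means for the genes of 8 lists with a mean of at least 1 (points, staggered to be seen; black bar the median of the list; grey band under 1.5-fold), for Scd2f/f DEN+WAD over untreated liver on the left and for the Cre group over Scd2f/f DEN+WAD on the right. With DEN and WAD, the 2 ER lists extend to the left and the ATF4 and CHOP targets in both directions, up to 4.65 for Fgf21.

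**Figure D5:**
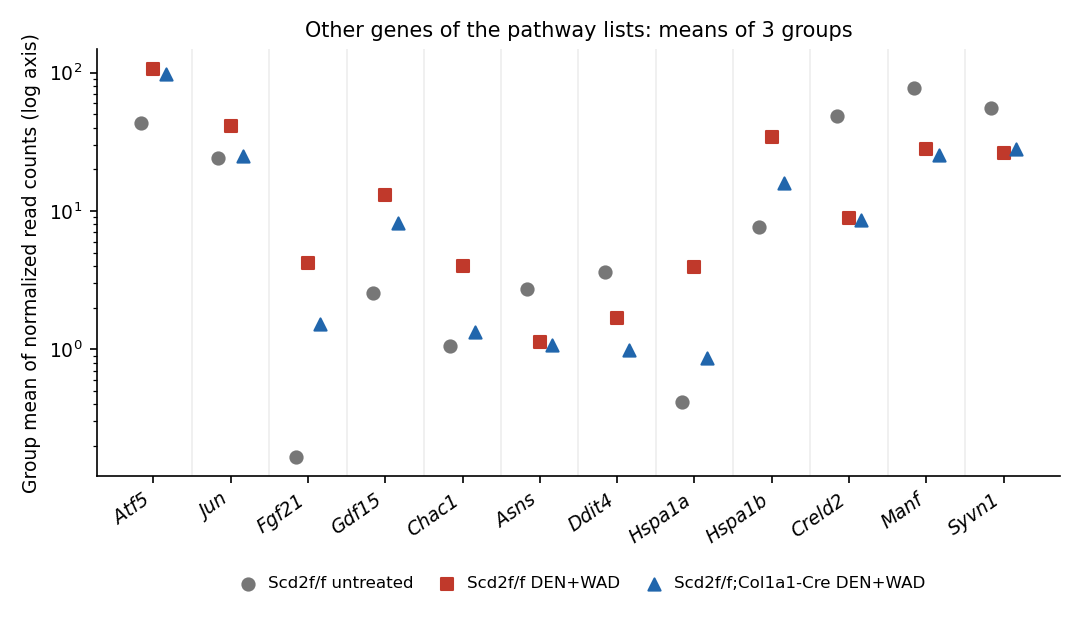
Group means of 12 genes of the pathway lists that the text names, in normalized read counts on a log axis, with 1 point per group and no error available. Fgf21, Gdf15, Chac1, Jun, Hspa1a and Hspa1b are highest in Scd2f/f DEN+WAD liver, while Creld2, Manf and Syvn1 are highest in untreated liver and nearly equal in the DEN+WAD groups.

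Markers of cell types differed between these groups. Scd2, the targeted gene, had means of 2.46 in untreated, 6.47 in Scd2f/f DEN+WAD and 1.87 in Scd2f/f;Col1a1-Cre DEN+WAD liver. The summed means of 8 hepatocyte markers were 37500, 34600 and 39300 in the same order, high in every group. Alb (21300, 20900 and 22700) made up most of them. Of the 8, 6 were below untreated liver in Scd2f/f DEN+WAD, with the lowest ratio for Tat (499, 181 and 305). In the Cre group 7 of the 8 were above Scd2f/f DEN+WAD. All 8 macrophage markers were at least 1.5-fold higher in Scd2f/f DEN+WAD than in untreated liver, where 12.8% of all genes were. The sum of these markers went from 78.9 to 286, with 226 in the Cre group. The sum of 8 markers of HSC and fibroblasts was 58.5, 135 and 56.9, carried by the collagens Col1a1, Col1a2 and Col3a1. Of these 8, 6 were above untreated liver in Scd2f/f DEN+WAD, while Des (4.25, 3.29 and 1.98) and Acta2 (1.27, 1.2 and 0.388) were highest in untreated liver, and all 8 were lower in the Cre group than in Scd2f/f DEN+WAD. The sum of 7 T cell markers was 1.64, 6.11 and 3.13, and 0 of the 7 had a mean over the 3 groups of at least 1. In the Cre group 6 were lower than in Scd2f/f DEN+WAD, while Cd4 (0.442, 0.817 and 0.883) was not. The sum of 6 endothelial markers was 105, 142 and 143. That of 5 cholangiocyte markers was 58.7, 53.1 and 19.1, most of it Spp1 (52.3, 45.1 and 14.8). Of these 5, 3 were below untreated liver in Scd2f/f DEN+WAD and 2 above, among them Sox9 (3.0, 5.03 and 3.52). All 5 were lower in the Cre group than in Scd2f/f DEN+WAD. Plasma and B cells, which have a large ER, gave 84.1, 85.9 and 103 for the 5 of 8 listed markers found, almost all of it Sdc1, which hepatocytes also express. Jchain, a defining gene of plasma cells, was at 4.05, 3.67 and 2.68. The part of these cells in the levels of the stress genes was not tested. In bulk tissue, fewer cells of a type and less RNA per cell cannot be told apart.

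The scaling also bears on every ratio. The upper quartile of the group means was 15.5, 15.5 and 15.4, but their sums were 820581, 658322 and 739723, and the 10 highest genes, led in untreated liver by an rRNA gene, took 39.6%, 27.9% and 29.7% of them. Scaling to equal sums would add 0.32 to every log2 ratio of Scd2f/f DEN+WAD over untreated liver, take 0.17 from those of the Cre group over Scd2f/f DEN+WAD, and add 0.15 to those of the Cre group over untreated liver. The shares of genes counted as higher and lower in the first comparison would then be 28.5% and 3.74%. Under that scaling 3 of the 4 chaperone and Xbp1 calls remained, with Xbp1 under the limit. Over protein-coding genes alone the sums were 491124, 479218 and 517635. Scaling to equal sums of these genes would shift the log2 ratios of the 3 comparisons by only 0.04, -0.11 and -0.08.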

How the data were processed

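Libraries were prepared from liver RNA with the Illumina TruSeq RNA kit v2, which does not mark strand. The submitters' processing notes name STAR 2.6.1, Partek 6 and the mm10 build. By the study's methods, gene counts came from Partek E/M quantification against Gencode M3, were scaled by upper quartile across samples and entered Partek Gene Specific Analysis. The signal used here is the deposited least-squares mean of each group in that fit, given with 3 significant digits for 16755 genes. A second deposited copy of the Scd2f/f DEN+WAD mean, another column, was equal to the first in all genes. The table also holds the authors' p-values, false discovery rates, ratios and fold changes of 2 comparisons, which were not used.

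Ratios of group means were computed with no pseudocount for 3 comparisons, and a ratio of at least 1.5-fold (tolerance 1e-09) was counted. The background was 11784 genes with a mean over the 3 groups of at least 1. Since means alone were used, no test, error or p-value is given, and sequencing depth is unknown. Each group has 3 samples by the labels, which do not say more of their origin. The members, the pathway lists and the marker lists were chosen with earlier results of these data known. From each list, the genes with the 2 highest and 2 lowest ratios in each comparison are named (1 and 1 for cytosolic and mitochondrial lists), and Scd2. Other genes named beside a count (Fkbp11, Dnajb11, Calr, Canx, Sec61b, Ssr2, Sec11c, Spcs2, Jchain, Sdc1, Mars, Txndc5, Hspb1, Aldh18a1, Des, Acta2, Col1a1, Col1a2, Col3a1 and others named for an overlap or a motif) were chosen after their values were seen. So were Bbc3, Vldlr, Alb, Tat, Cd4, Spp1 and Sox9. Gene ends were taken as the position before the stop in the table, which equals the GENCODE M21 end in 14378 of 14900 genes matched by symbol, chromosome and start. Exon lengths came from GENCODE M21 on GRCm38, and promoter windows from RefSeq, where all 10 members matched. Alternatives were limits of 1.2-fold and 2-fold, a mean of at least 10, all genes, pseudocounts of 0.1 and 1, centring on the median, scaling to equal sums and, added after the data were seen, scaling to equal sums of protein-coding genes. The steps were tested on simulated data. Python 3.11.15, NumPy 2.4.6, pandas 2.3.3 and Matplotlib 3.10.9 were used.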

Additional observations from a re-analysis of the deposited data

How the results depend on the processing

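No paired analysis was possible because the values are means of groups, and for the same reason no replicate was left out in turn. With a 2-fold limit, 1 member was higher in Scd2f/f DEN+WAD over untreated liver, beside 6.4% of all genes. In the Cre group over Scd2f/f DEN+WAD 1 was lower, beside 1.54%, and it was Atf3 in both. A mean of at least 10 leaves 7 members and drops Atf3, Ddit3 and Trib3. The number higher over untreated liver was then 0 in Scd2f/f DEN+WAD, beside 7.64% of all genes, and 0 in the Cre group, beside 7.41%. The number lower in the Cre group over Scd2f/f DEN+WAD was 0, beside 1.79%. With a 1.2-fold limit, 2 of the 10 members were higher in the Cre group over untreated liver, beside 27.6% of all genes. Scaling to equal sums gave medians over the members of -0.18, -0.2 and -0.26, beside 0.35, -0.16 and 0.19 for all genes, in the order of the report. Equal sums of protein-coding genes gave a median of -0.15 for the Cre group over Scd2f/f DEN+WAD, beside -0.11 for all genes. Herpud1 over untreated liver, and Hspa5, Hsp90b1, Xbp1 and Atf4 between the DEN+WAD groups, turned direction under a scaling, all with ratios under the limit. No ratio past the limit turned. Under either scaling to equal sums, 3 members were lower in the Cre group over Scd2f/f DEN+WAD, with Ddit3 added. The shares of all genes were then 8.56% and, for protein-coding sums, 7.01%. The other counts and medians of the members stayed within 1.5 times or 0.1 of the reported value. Counts of members were not made with a pseudocount. A pseudocount of 1 moved 7 of 30 member ratios by at least 0.1, and one of 0.1 moved 3. With the pseudocount of 1, some log2 ratios fell under the limit. These were Ddit3 in Scd2f/f DEN+WAD over untreated liver (0.89 to 0.56) and Atf3 in the Cre group over untreated liver (1.28 to 0.5). Trib3 in the Cre group over Scd2f/f DEN+WAD also did (-0.58 to -0.49).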

Other observations

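Of 11 cytosolic heat shock proteins, 2 were at least 1.5-fold higher (18.2%, near the 12.8% of all genes) and 3 lower (8.6% of all genes) in Scd2f/f DEN+WAD than in untreated liver. Hspa1a, an inducible Hsp70, had means of 0.415 in untreated, 3.96 in Scd2f/f DEN+WAD and 0.861 in Scd2f/f;Col1a1-Cre DEN+WAD liver, and Hspa1b had means of 7.62, 34.5 and 16. Hspa1a reached a mean of at least 1 only through Scd2f/f DEN+WAD liver, where it was high. These 2 genes are near-identical copies, so the division of reads between them is uncertain. Hsp90aa1, the inducible cytosolic Hsp90, had means of 335, 172 and 154. In the Cre group over Scd2f/f DEN+WAD, all 11 had a log2 ratio below 0, with a median of -0.34 beside 0.01 for all genes, and 3 were at least 1.5-fold lower (Hspa1a, Hspa1b and Hspb1), beside 4.9% of all genes. Hspa4 had the highest ratio there, 0.973, and Hspb1 had means of 15.9, 16.2 and 7.61. Hsph1 had the lowest ratio in the Cre group over untreated liver, 0.416.

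Of 8 mitochondrial chaperones and proteases, Hspe1, the cochaperonin HSP10, had means of 107, 46.1 and 44.5, and Clpx, the ATPase of the matrix protease ClpXP, had means of 37.7, 73.3 and 84.2. No gene of this list passed the limit between the DEN+WAD groups, where 2.35% of all genes were higher and 4.9% lower. The median log2 ratio of the list there was -0.01.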
